A study of Homo sapiens with 4 samples.

Results

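Laminins are secreted trimers of an alpha, a beta and a gamma chain that polymerise into the sheet to which cells attach at basement membranes. Laminin-332, which holds the alpha chain of LAMA3 and the beta chain of LAMB3, is known as the adhesive laminin of epithelia and is bound by the integrins alpha-3 beta-1 and alpha-6 beta-4. Trimers of LAMA4 or LAMA5 chains with LAMB1 or LAMB2 and LAMC1 are spread more widely over epithelial, mesenchymal and vascular basement membranes. A trimer needs 1 chain of each class, and the gamma chain of LAMC1 is shared by most laminins.

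The laminin chain genes described here are LAMA1, LAMA3, LAMA4, LAMA5, LAMB1, LAMB2, LAMB3 and LAMC1, 8 of the 58735 genes in the deposited table, taken by gene name. The family was chosen by the lower FPKM of LAMB3 in KO than in WT, seen earlier in these same libraries, so the values of LAMB3 are given as a description with no test, and those of the other chains come from the same contrast and lend it no independent support. The chain genes LAMA2, LAMB4 and LAMC3 are reported beside the members.

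RNA was sequenced from 2 KO and 2 WT libraries of HFL1 cells, labelled as a human lung fibroblast line. KO stands for loss of calumenin (CALU), which binds calcium in the endoplasmic reticulum and is secreted in part, and the study asked how this loss bears on senescence and fibrosis programmes. The labels name no other treatment, allele, clone or time, and do not say how the knockout was made. Nor do they say whether libraries sharing a label were grown apart, so each p rests on a spread that may be technical. CALU stood at 6.59 and 5.95 FPKM in the KO libraries, against 87.7 and 81.8 FPKM in the WT libraries, where FPKM is a count of fragments scaled to gene length and library size. Whole reads recovered from the FPKM values numbered 17699349 and 16622382 in the KO libraries and 17715774 and 16173899 in the WT libraries, so LAMB3 with 561 and 518 reads in the KO libraries was well above the level of 3 reads, which is 0.0391 FPKM or less for this gene. Mitochondrial genes took 9.34% and 9.71% of reads in the KO libraries, against 9.66% and 12.7% in the WT libraries. The FPKM of all genes summed to 297437 and 327511 in the KO libraries and to 292088 and 335448 in the WT libraries.

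The labelled cell type was checked against its markers. Of 11 fibroblast markers, 8 stayed below 1 FPKM in every library and COL1A2 and POSTN were at 0 in every library. Summed over the list, fibroblast markers reached 111 and 90.0 FPKM in the KO libraries and 78.7 and 49.3 FPKM in the WT libraries, most of it VIM at 46.8 to 106 FPKM. The 8 markers of simple epithelium summed to 1883 and 2251 FPKM in the KO libraries and to 995 and 1134 FPKM in the WT libraries, with KRT8 the highest at 349 to 926 FPKM. Keratins made up most of that sum, while EPCAM, an epithelial adhesion protein, was at 1.57 to 2.04 FPKM and ESRP1, an epithelial splicing factor, at 0.0468 to 0.157 FPKM. KRT5 and KRT14, the defining keratins of basal epithelium, were at or below 0.0480 FPKM in every library, and the 5 basal markers summed to 2.41 and 2.31 FPKM in the KO libraries and 5.03 and 4.40 FPKM in the WT libraries. The highest basal marker was TP63 in KO, at 2.08 and 1.91 FPKM, and KRT15 in WT, at 2.21 and 1.93 FPKM. All 6 endothelial markers stayed below 1 FPKM, the highest being PECAM1 at up to 0.488 FPKM, as did 6 of 7 entries for 6 smooth muscle and pericyte markers, the exception being ACTA2, which fell to 2.21 FPKM in each KO library, against 5.87 and 6.09 FPKM in the WT libraries (limma adjusted p = 0.00593, and 0.0501 with no filter on low values). The laminin results below are therefore those of cells whose transcripts go against the fibroblast label for most of the defining genes, and the simple epithelial markers differed between the groups in the same libraries: of 7 tested, KRT8, KRT18, KRT19 and CDH1 rose and CLDN4 fell (limma adjusted p = 0.0224, 0.0132, 0.00436, 0.00312 and 0.00414). Of the 3 tested basal markers TP63 rose and KRT15 and COL17A1 fell, and of the 3 tested fibroblast markers COL1A1 rose (limma adjusted p = 0.0198, 0.00574, 0.0102 and 0.0041). KRT8 lost its call without WT replicate 1, WT replicate 2 or KO replicate 2, KRT18 without either WT replicate, and TP63 without any 1 library (limma adjusted p = 0.0511 to 0.141), and with no filter on low values these 3, KRT15 and COL17A1 lost theirs (limma adjusted p = 0.0507 to 0.137). The part of cell type in the laminin differences was not tested. In bulk RNA, fewer cells of a type and less RNA per cell cannot be told apart.

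**Figure D1:**
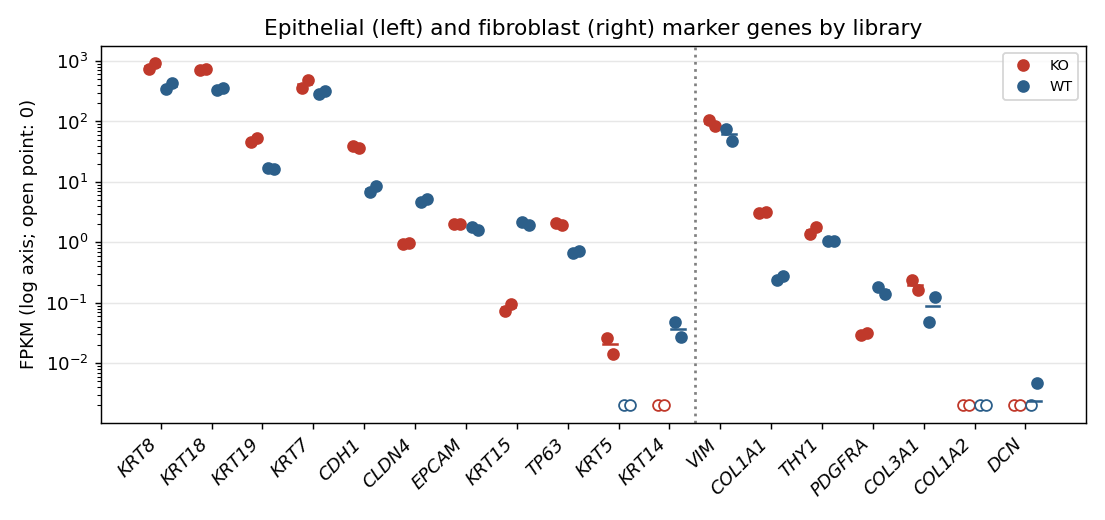
FPKM (log axis) of epithelial and fibroblast marker genes in each of the 2 KO and 2 WT libraries, with points for libraries and short lines for group means. KRT8, KRT18 and KRT7 lie above 289 FPKM in every library, while COL1A2 is at 0 in all 4.

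The sequences just upstream of transcription starts are shown for the members that occur in laminin-332 and for LAMB1, a chain outside it. The former are LAMB3, much lower in KO, and LAMA3, which did not pass the test. They are RefSeq windows on GRCh38.p14 that run from 250 bases before to 50 bases after a start, 5′ to 3′ on the gene's strand. Of the 8 members, 7 have a window, and LAMB3 has 3 starts. Capitals mark TGANTCA, the 7-base core bound by AP-1 (both strands read the same letters), which was found in 7.71% of 35116 such windows. LAMB3 is on the minus strand of chromosome 1 and its windows lie at chr1:209652376-209652675 for the outermost start and chr1:209651325-209651624 for the innermost start, LAMA3 on the plus strand at chr18:23872770-23873069, and LAMB1 on the minus strand at chr7:108003112-108003411. The LAMA3 window stands at an internal start, 183577 bases downstream of the 5′ end of the annotated gene, and the 5′ end itself has no window here.
LAMB3 outermost start: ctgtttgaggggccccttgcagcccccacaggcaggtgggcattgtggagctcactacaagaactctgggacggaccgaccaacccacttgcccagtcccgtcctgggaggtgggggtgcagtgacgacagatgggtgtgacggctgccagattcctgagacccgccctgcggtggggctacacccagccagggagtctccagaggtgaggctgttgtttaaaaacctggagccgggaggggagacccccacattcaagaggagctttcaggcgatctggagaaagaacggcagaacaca
LAMB3 innermost start: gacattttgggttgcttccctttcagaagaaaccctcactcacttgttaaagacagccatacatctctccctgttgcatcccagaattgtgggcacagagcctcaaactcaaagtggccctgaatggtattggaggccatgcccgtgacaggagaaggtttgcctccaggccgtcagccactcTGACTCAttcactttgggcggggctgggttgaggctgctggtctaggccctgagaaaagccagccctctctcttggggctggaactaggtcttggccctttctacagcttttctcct
LAMA3 internal start: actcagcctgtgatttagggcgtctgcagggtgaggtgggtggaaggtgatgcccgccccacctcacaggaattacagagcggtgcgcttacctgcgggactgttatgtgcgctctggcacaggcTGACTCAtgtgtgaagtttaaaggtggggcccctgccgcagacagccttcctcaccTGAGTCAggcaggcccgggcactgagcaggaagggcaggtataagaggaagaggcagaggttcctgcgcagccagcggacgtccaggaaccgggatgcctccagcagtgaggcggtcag
LAMB1: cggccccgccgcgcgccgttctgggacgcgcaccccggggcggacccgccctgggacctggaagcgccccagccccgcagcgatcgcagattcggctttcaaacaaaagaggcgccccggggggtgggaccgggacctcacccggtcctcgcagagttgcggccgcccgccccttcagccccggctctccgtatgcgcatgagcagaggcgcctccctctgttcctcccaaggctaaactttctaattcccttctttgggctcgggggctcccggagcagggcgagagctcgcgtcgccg
The core was present 1 time in the innermost LAMB3 window, beginning 67 bases before the start, and 2 times in the LAMA3 window, and these letters were absent from the outermost LAMB3 window and from LAMB1. The windows of LAMA4, LAMA5, LAMB2 and LAMC1 and the third LAMB3 window held no match either. These matches describe letters and not binding.

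LAMB3 was low in KO and abundant in WT, and LAMA3, its partner in laminin-332, was low in both. LAMB3, the beta chain found in laminin-332, had 6.83 and 6.74 FPKM in the KO libraries, against 54.9 and 52.7 FPKM in the WT libraries. The KO libraries agreed closely with each other and lay far below both WT libraries. The mean was 6.79 ± 0.0628 FPKM in KO and 53.8 ± 1.53 FPKM in WT (SD, n = 2 each), 7.93-fold lower, with a difference of -2.82 on the log2(FPKM + 1) scale (SE 0.13), given with no test. The gene (ENSG00000196878) lies on chromosome 1 from 209614870 to 209652466 on the minus strand of GRCh38.

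LAMA3, the alpha chain of laminin-332, had 2.26 and 2.25 FPKM in the KO libraries, against 3.35 and 2.48 FPKM in the WT libraries. Both KO libraries lay below both WT libraries, but the gap to WT replicate 2 was small against the spread within WT. The means of 2.25 ± 0.0104 FPKM in KO and 2.91 ± 0.618 FPKM in WT (SD, n = 2 each) gave a log2 difference of -0.26 (SE 0.17), which did not pass the test (limma adjusted p = 0.305). LAMA3 has a long and a short form, and the gene length used for the FPKM, 14678 bases, covers both, while the shortest of its 4 coding transcripts with a consensus coding sequence in GENCODE release 29 has 5007 bases. If every read came from that transcript, LAMA3 would stand at 6.63 and 6.58 FPKM in the KO libraries and at 9.83 and 7.26 FPKM in the WT libraries. Gene-level values do not show which form was present, so the level of LAMA3 relative to other chains is uncertain by up to this factor. The gene (ENSG00000053747) spans chromosome 18 from 23689443 to 23956222 on the plus strand.

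**Figure D2:**
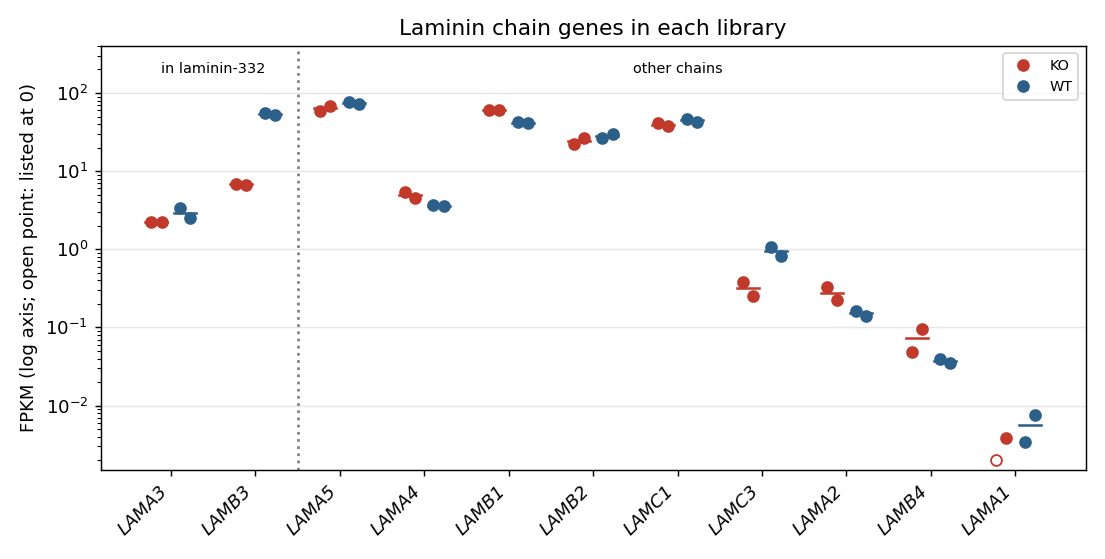
FPKM (log axis) of 11 laminin chain genes in each KO and WT library, points for libraries and short lines for group means, with LAMA3 and LAMB3, which occur in laminin-332, on the left. LAMB3 lies at 6.74 and 6.83 FPKM in KO and at 52.7 and 54.9 FPKM in WT, while LAMA5, LAMB1, LAMB2 and LAMC1 lie between 22.4 and 75.7 FPKM in all 4 libraries.

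The other abundant members differed far less between the groups. LAMB1, the beta chain of most mesenchymal and early laminins, had 60.4 and 59.7 FPKM in the KO libraries, against 42.7 and 40.7 FPKM in the WT libraries. Its KO libraries were both higher than its WT libraries, and the means of 60.0 ± 0.492 FPKM in KO and 41.7 ± 1.41 FPKM in WT (SD, n = 2 each) gave a 1.44-fold rise (log2 0.51, SE 0.13, limma adjusted p = 0.0462). This call sat at the edge of the threshold: it was lost without any 1 of the 4 libraries (limma adjusted p = 0.0753 to 0.29), and with no filter on low values, quantile normalization or rescaling of the libraries to equal sums (limma adjusted p = 0.0811, 0.0843 and 0.127).

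LAMA5, the alpha chain of laminin-511 and laminin-521, was the highest member by mean FPKM on gene lengths in both groups. It had 58.4 and 68.6 FPKM in the KO libraries, against 75.7 and 72.8 FPKM in the WT libraries. Its KO libraries lay just below its WT libraries and differed more from each other than the WT pair did (log2 -0.23, SE 0.15, limma adjusted p = 0.329). LAMC1, the shared gamma chain, had 41.0 and 37.3 FPKM in the KO libraries, against 46.9 and 42.0 FPKM in the WT libraries (log2 -0.18, SE 0.15, limma adjusted p = 0.414). The gap between KO replicate 1 and WT replicate 2 was smaller than the difference within either group. LAMB2, the beta chain of synaptic, kidney and vascular laminins, had 22.4 and 26.6 FPKM in the KO libraries, against 26.7 and 29.5 FPKM in the WT libraries, and here too the groups nearly touched (log2 -0.19, SE 0.15, limma adjusted p = 0.399).

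LAMA4, an alpha chain of endothelial, muscle and fat laminins, had 5.37 and 4.54 FPKM in the KO libraries, against 3.70 and 3.53 FPKM in the WT libraries. Both KO libraries were above both WT libraries, by an amount that did not pass the test (log2 0.36, SE 0.14, limma adjusted p = 0.119). LAMA1, the alpha chain of the first embryonic basement membranes, was close to absent, with 0 and 1 reads in the KO libraries and 1 and 2 reads in the WT libraries. A level of 3 reads would be at most 0.0115 FPKM for LAMA1, so no fold is given, and the gene did not enter the test.

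Of the 8 members, 7 had at least 1 FPKM in at least 2 libraries and were tested. Leaving out LAMB3, 1 of the other 6 rose and 0 fell (limma, adjusted p under 0.05), where 12.1% of all 14100 genes tested rose and 11.1% fell. At an unadjusted p under 0.05 the counts were 2 and 0, a cutoff passed by a larger share of all genes, which was not counted. The median difference of these 6 was -0.19 on the log2(FPKM + 1) scale, against 0.03 over all genes tested. Both KO libraries lay below both WT libraries for 5 of the 7 tested members and above them for 2. This held for 31.3% and 34.4% of all genes tested. The 5 include LAMB3, whose place among them was fixed by the choice of the family. With so few members, nothing about the family is read from these counts.

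The remaining chains were rare. LAMC3, a gamma chain of some nerve and retinal laminins, had 0.383 and 0.249 FPKM in the KO libraries, against 1.06 and 0.819 FPKM in the WT libraries, 2.97-fold lower from 82 reads in KO and 249 reads in WT. LAMA2, the alpha chain of muscle and mesenchymal laminin, had 0.325 and 0.224 FPKM in the KO libraries, against 0.164 and 0.141 FPKM in the WT libraries, and LAMB4 stayed at or below 0.0957 FPKM. None of these 3 genes passed the filter on low values, so none was tested.

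The order and shares of the chains are a description, since LAMB3 chose the family. FPKM is per length, so levels can be set beside each other within a library, with the limit given above for LAMA3 and a wider one for LAMA4. The gene length used for LAMA4 is 11575 bases, and the shortest of its 6 coding transcripts with a consensus coding sequence has 645 bases. If every read came from that transcript, LAMA4 would stand at 96.3 and 81.5 FPKM in the KO libraries and at 66.3 and 63.4 FPKM in the WT libraries. This is an outer bound, as that transcript is far shorter than the longest of the 6, at 6547 bases. On gene lengths, in KO libraries the order of mean FPKM was LAMA5, LAMB1, LAMC1, LAMB2, LAMB3, LAMA4 and LAMA3, and the ranges of LAMA5 and LAMB1 overlapped while those of the other neighbours did not. In WT libraries the order on gene lengths was LAMA5, LAMB3, LAMC1, LAMB1, LAMB2, LAMA4 and LAMA3. The ranges of LAMC1 and LAMB1 overlapped there while those of the other neighbours did not. LAMB3 made up 7.62% and 7.24% of the summed FPKM of beta chains in the KO libraries, against 44.1% and 42.9% in the WT libraries. LAMB1 took 67.4% and 64.1% of that sum in the KO libraries, against 34.4% and 33.1% in the WT libraries, and with LAMB3 left out of the sum it took 72.9% and 69.1% in the KO libraries, against 61.5% and 58.0% in the WT libraries. Among alpha chains, LAMA5 held 88.0% and 90.7% in the KO libraries, against 91.3% and 92.2% in the WT libraries. These alpha shares hold on gene lengths. They would be far lower for LAMA5 at the outer bound in which all LAMA4 reads came from its shortest transcript.

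**Figure D3:**
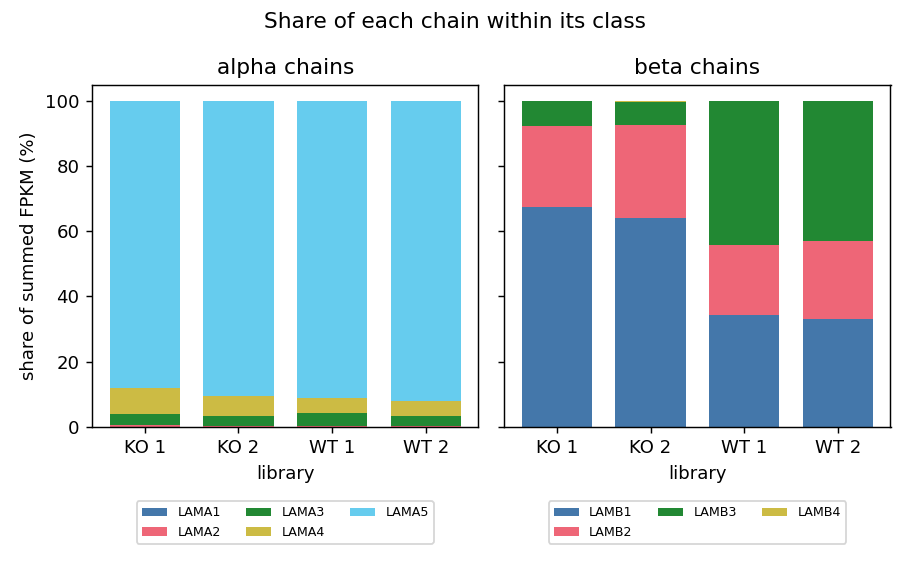
Share (%) of each chain in the summed FPKM of its class, alpha or beta, on gene lengths in each KO and WT library, as stacked bars that add to 100%. LAMB3 covers 7.24% to 7.62% of the beta class in KO libraries and 42.9% to 44.1% in WT libraries, and LAMA5 covers 88.0% or more of the alpha class in all 4.

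The summed FPKM of beta chains was 89.6 and 93.2 in the KO libraries and 124 and 123 in the WT libraries. That of alpha chains was 66.3 and 75.6 in the KO libraries and 82.9 and 79.0 in the WT libraries. Both sums were lower in both KO libraries than in both WT libraries, but that of beta chains turned round without LAMB3, at 82.8 and 86.4 FPKM in the KO libraries, against 69.5 and 70.3 FPKM in the WT libraries. The ratio of LAMB3 to LAMB1 was 0.113 in each KO library, against 1.28 and 1.29 in the WT libraries. The ratio of LAMA3 to LAMA5 was 0.0387 and 0.0328 in the KO libraries and 0.0443 and 0.0340 in the WT libraries, with overlap. A two-sided exact permutation test over the 4 libraries gave p = 0.667 for LAMA3 to LAMA5, where the smallest p this design allows is 0.333. LAMB3 exceeded LAMA3 by 3.02 and 3.003 times in the KO libraries, against 16.4 and 21.3 times in the WT libraries, before any allowance for the length of LAMA3.

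Genes annotated across the members could add or take reads, because the counting is not stated to use strand. Those given here were named after their values were seen. LAMA5-AS1, antisense to LAMA5, had 1.15 and 1.45 FPKM in the KO libraries, against 3.51 and 5.07 FPKM in the WT libraries, and AC005046.1, antisense to LAMB1, had 4.75 and 4.49 FPKM in the KO libraries, against 2.98 and 3.51 FPKM in the WT libraries. LAMA5-AS1 passed the test and AC005046.1 did not (limma adjusted p = 0.0137 and 0.0903), and the call of LAMA5-AS1 was lost without WT replicate 2 and with no filter on low values (limma adjusted p = 0.0573 to 0.078). Reads of such pairs cannot be told apart here. AL365214.2, antisense to LAMA4, had 0.0276 and 0.0295 FPKM in the KO libraries, against 0.119 and 0.177 FPKM in the WT libraries, the opposite direction to LAMA4. Z99289.1, also antisense to LAMA4, had 0.378 and 0.202 FPKM in the KO libraries, against 0.0726 and 0.121 FPKM in the WT libraries, the same direction as LAMA4. Reads in KO and WT were 4 and 21 for AL365214.2 and 15 and 5 for Z99289.1, and neither gene was tested. LAMC1-AS1 overlapped between the groups at 0.764 to 1.31 FPKM. ADRM1 and DLD were more abundant, and lie on the other strand, overlapping only an end of LAMA5 and of LAMB1, respectively. ADRM1, a proteasome ubiquitin receptor, had 27.9 and 38.7 FPKM in the KO libraries, against 51.7 and 54.9 FPKM in the WT libraries. DLD, a mitochondrial dehydrogenase, had 26.1 and 21.1 FPKM in the KO libraries, against 21.1 and 19.5 FPKM in the WT libraries. Neither passed the test (limma adjusted p = 0.0556 and 0.397), although ADRM1 passed without KO replicate 2, with quantile normalization and with a replicate block. The only gene that overlaps LAMB3 in the table, MIR4260, was at 0 in every library.

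The 3 protein-coding genes whose centred log2(FPKM + 1) profile over the 4 libraries lay nearest to that of LAMB3, among 6996 with a mean of at least 5 FPKM, were TCN1, SGPP2 and IRAK2, at Euclidean distances of 0.106, 0.109 and 0.175. IRAK2, a kinase of interleukin-1 receptor signalling, had 8.36 and 8.92 FPKM in the KO libraries, against 69.2 and 57.8 FPKM in the WT libraries. TCN1, a vitamin B12 carrier, had 3.31 and 3.12 FPKM in the KO libraries, against 26.8 and 27.0 FPKM in the WT libraries. SGPP2, a phosphatase of sphingosine 1-phosphate, had 0.993 and 1.10 FPKM in the KO libraries, against 12.7 and 12.5 FPKM in the WT libraries. With 4 libraries in 2 groups such likeness mostly reflects the size of the group difference.

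Several receptors for laminin fell in KO. Of 13 listed receptor genes, 11 were tested, and 4 fell and 0 rose (limma, adjusted p under 0.05), against the 11.1% and 12.1% of all genes given above. At an unadjusted p under 0.05 the counts were 5 and 0, a cutoff passed by a larger share of all genes, which was not counted. The median difference over the 11 was -0.47 on the log2(FPKM + 1) scale. ITGA3, the alpha-3 integrin chain that binds laminin-332 and laminin-511 with ITGB1, had 49.6 and 48.3 FPKM in the KO libraries, against 132 and 103 FPKM in the WT libraries (log2 -1.23, SE 0.17, limma adjusted p = 0.00973). ITGA2, a collagen and laminin binding chain, had 14.0 and 10.0 FPKM in the KO libraries, against 62.6 and 42.9 FPKM in the WT libraries (log2 -2.04, SE 0.25, limma adjusted p = 0.0065). Both genes were lower in both KO libraries than in either WT library. SDC4, a cell surface heparan sulfate proteoglycan, had 18.3 and 19.4 FPKM in the KO libraries, against 59.3 and 50.7 FPKM in the WT libraries (log2 -1.49, SE 0.15, limma adjusted p = 0.0045). ITGB4, which pairs with ITGA6 in hemidesmosomes, had 35.1 and 34.6 FPKM in the KO libraries, against 60.7 and 52.3 FPKM in the WT libraries (log2 -0.68, SE 0.15, limma adjusted p = 0.0279). ITGA6 itself, named here after its values were seen, had 17.5 and 12.7 FPKM in the KO libraries, against 29.3 and 23.1 FPKM in the WT libraries, and narrowly missed the threshold (limma adjusted p = 0.0502). ITGB1, the common beta-1 chain, also named after its values were seen, ranged from 307 to 361 FPKM in the KO libraries and from 257 to 300 FPKM in the WT libraries (limma adjusted p = 0.355). The call of ITGB4 was lost without any 1 library (limma adjusted p = 0.0593 to 0.229) and with rescaling to equal sums (0.0699), that of ITGA3 without WT replicate 1 (0.0616), and those of ITGA3, ITGA2 and ITGB4 with no filter on low values (limma adjusted p = 0.0567 to 0.0752).

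Hemidesmosomes tie integrin alpha-6 beta-4 to keratin. Of 8 listed genes, 6 were tested, and 3 fell and 0 rose (limma, adjusted p under 0.05), where 11.1% of all genes tested fell and 12.1% rose. At an unadjusted p under 0.05 the counts were 5 and 0, a cutoff passed by a larger share of all genes, which was not counted. This list shares ITGA6, ITGB4 and CD151 with the receptors. CD151, a tetraspanin that binds laminin-binding integrins and is named after its values were seen, had 67.7 and 106 FPKM in the KO libraries, against 55.2 and 68.1 FPKM in the WT libraries, with overlap (log2 0.46, SE 0.25, limma adjusted p = 0.237). PLEC, the linker plectin, had 51.5 and 59.3 FPKM in the KO libraries, against 118 and 112 FPKM in the WT libraries (log2 -1.04, SE 0.15, limma adjusted p = 0.0105). COL17A1, the hemidesmosomal collagen, had 0.234 and 0.294 FPKM in the KO libraries, against 2.10 and 1.72 FPKM in the WT libraries, 7.23-fold lower (limma adjusted p = 0.0102). PLEC lost its call without WT replicate 1 or 2 (limma adjusted p = 0.0767 and 0.0577), and both lost it with no filter on low values (limma adjusted p = 0.0541 and 0.0591).

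Other proteins of the basement membrane moved both ways. Of 23 listed genes, 17 were tested, of which 5 rose and 3 fell, where 12.1% of all genes tested rose and 11.1% fell, with a median difference of 0.09 on the log2(FPKM + 1) scale. The genes that rose were 4 of the tested chains of type IV collagen, the network that lies beside the laminin sheet, and FBLN1, a fibulin that binds laminin. The type IV chains COL4A3 and COL4A4, named after their values were seen, did not pass the test (limma adjusted p = 0.693 and 0.678). COL4A5 had 7.73 and 7.14 FPKM in the KO libraries, against 2.45 and 2.09 FPKM in the WT libraries (log2 1.37, SE 0.14, limma adjusted p = 0.00472). Its partner COL4A6 had 5.46 and 6.50 FPKM in the KO libraries, against 1.73 and 1.53 FPKM in the WT libraries (log2 1.41, SE 0.15, limma adjusted p = 0.00514). The KO libraries stood above the WT libraries for both. COL4A1 and COL4A2 rose 1.72-fold and 1.69-fold (limma adjusted p = 0.0219 and 0.0322), and FBLN1 rose 1.61-fold (limma adjusted p = 0.0381).

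The 3 basement membrane genes that fell were HSPG2, SMOC1 and PXDN. HSPG2, the heparan sulfate proteoglycan perlecan, had 7.81 and 8.40 FPKM in the KO libraries, against 18.3 and 17.6 FPKM in the WT libraries (log2 -1.06, SE 0.13, limma adjusted p = 0.00672). SMOC1, a secreted calcium-binding protein of basement membranes, was 2.63-fold lower (limma adjusted p = 0.00564). PXDN, the peroxidase that crosslinks type IV collagen, had 0.0406 and 0.103 FPKM in the KO libraries, against 2.74 and 2.46 FPKM in the WT libraries, 36.1-fold lower, or 64.0-fold without KO replicate 2 (limma adjusted p = 0.00433). NID1 and AGRN, which bind laminin directly and are named after their values were seen, had limma adjusted p = 0.877 and 0.731. COL4A1 and COL4A2 lost their calls without either WT replicate or KO replicate 2, FBLN1 without any 1 library and with rescaling to equal sums, and HSPG2 without WT replicate 1 (limma adjusted p = 0.0525 to 0.28 over these). With no filter on low values COL4A1, COL4A2, COL4A6 and FBLN1 lost theirs (limma adjusted p = 0.0505 to 0.105).

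**Figure D4:**
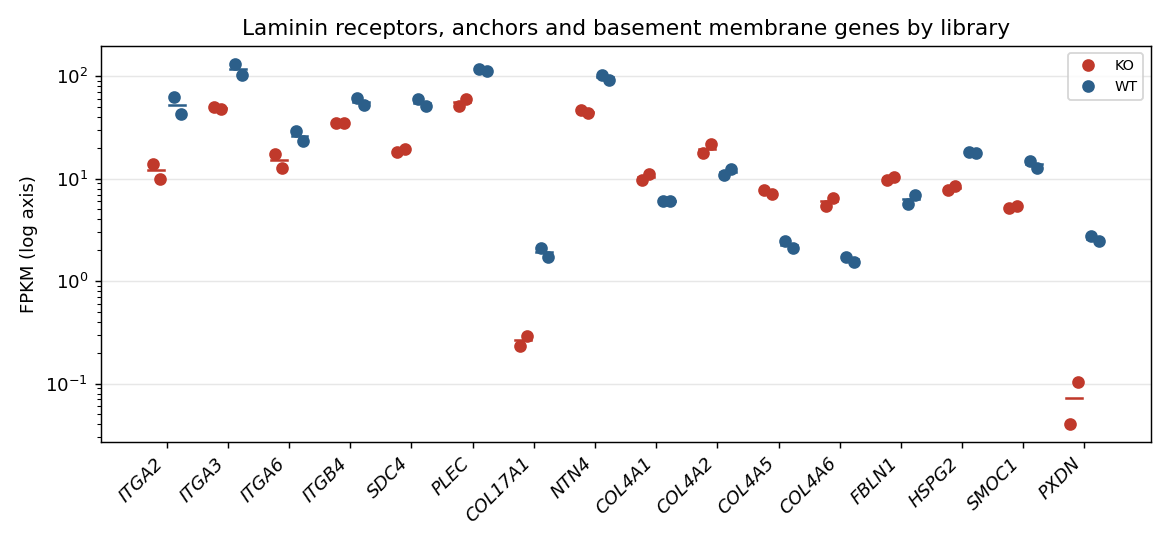
FPKM (log axis) of laminin receptors, hemidesmosome genes and basement membrane genes in each KO and WT library, points for libraries and short lines for group means. The points of ITGA2 lie at 14.0 and 10.0 FPKM in KO and at 62.6 and 42.9 FPKM in WT, and those of COL4A5 at 7.73 and 7.14 FPKM in KO and at 2.45 and 2.09 FPKM in WT.

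Among netrins and laminin-like proteins, NTN4, a netrin that binds the gamma-1 chain and hinders laminin polymerisation, had 46.7 and 43.4 FPKM in the KO libraries, against 103 and 92.7 FPKM in the WT libraries (log2 -1.10, SE 0.15, limma adjusted p = 0.00836). It was the 1 gene that fell among the 3 tested of 7 listed, and 0 rose, where 11.1% of all genes tested fell and 12.1% rose. At an unadjusted p under 0.05 (limma) 2 fell and 0 rose, a cutoff passed by a larger share of all genes, which was not counted. The call of NTN4 was lost without WT replicate 1 and with no filter on low values (limma adjusted p = 0.0672 and 0.0507).

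Of 8 listed genes for proteases known to cut laminin-332, 5 were tested, of which 2 fell and 1 rose, where 11.1% of all genes tested fell and 12.1% rose. TLL1, a tolloid-like relative of BMP1, had 2.33 and 1.88 FPKM in the KO libraries, against 4.56 and 5.76 FPKM in the WT libraries (limma adjusted p = 0.0148). MMP2, a gelatinase, had 1.46 and 1.34 FPKM in the KO libraries, against 4.63 and 3.59 FPKM in the WT libraries (limma adjusted p = 0.0114). ELANE, neutrophil elastase, was 2.80-fold higher and only just passed (limma adjusted p = 0.0499), a call lost without any 1 library and under 5 other alternatives (limma adjusted p = 0.0513 to 0.182). TLL1 lost its call without WT replicate 2 (limma adjusted p = 0.0848) and MMP2 without WT replicate 1 (limma adjusted p = 0.0639), and both lost it with no filter on low values (limma adjusted p = 0.076 and 0.0664).

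Matriglycan, the sugar chain by which dystroglycan holds the globular domains of laminin alpha chains, is built by a set of glycosyltransferases. Of 14 listed names, 12 matched the table and 11 genes were tested. Of these 2 fell and 1 rose (limma, adjusted p under 0.05), where 11.1% of all genes tested fell and 12.1% rose. At an unadjusted p under 0.05 the counts were 3 and 1, a cutoff passed by a larger share of all genes, which was not counted. The median difference was -0.22 on the log2(FPKM + 1) scale. LARGE2, which extends the chain, had 3.39 and 3.23 FPKM in the KO libraries, against 1.55 and 0.940 FPKM in the WT libraries (log2 0.96, SE 0.18, limma adjusted p = 0.0204). B4GAT1, which primes it, had 17.8 and 19.7 FPKM in the KO libraries, against 30.6 and 28.9 FPKM in the WT libraries (log2 -0.64, SE 0.14, limma adjusted p = 0.0266). POMGNT2 was 1.75-fold lower (limma adjusted p = 0.0154). Each of these 3 lost its call without at least 2 of the single libraries and with no filter on low values, and B4GAT1 also with rescaling to equal sums (limma adjusted p = 0.0536 to 0.205).

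**Figure D5:**
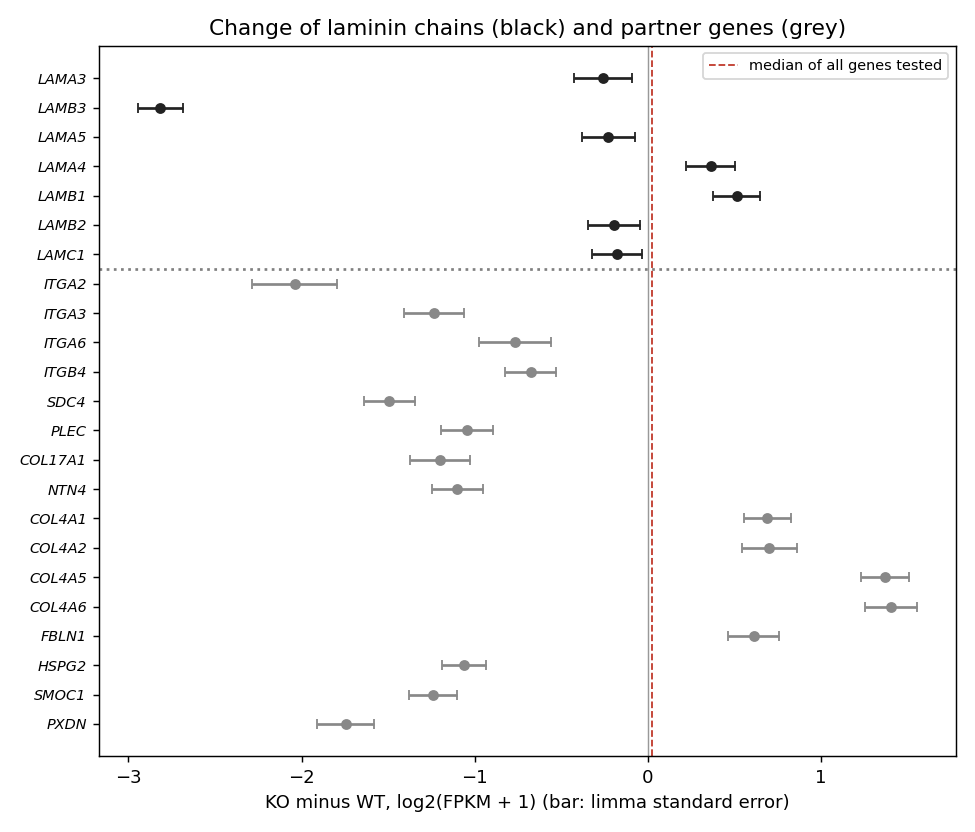
Difference between KO and WT on the log2(FPKM + 1) scale with its limma standard error, for 7 laminin chains and for receptor, hemidesmosome and basement membrane genes, with the median of all genes tested, 0.03, as a dashed line. On this scale LAMB3 lies at -2.82 and PXDN at -1.75, while with a pseudocount of 0.1 FPKM they stood at -2.97 and -3.99, and LAMA3 at -0.26 lies beside LAMA5, LAMB2 and LAMC1.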

How the data were processed

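The authors deposited FPKM values for 58735 genes in each of 2 KO and 2 WT libraries. Paired-end Illumina reads were aligned with HISAT2 2.0.5, per the labels' protocols, and the submitters' processing notes name the builds hg38 and mm10. No source used here gives the counting tool, strand setting or scaling. Gene starts and ends equalled GENCODE release 29 on GRCh38 for all genes. FPKM times gene length was a whole multiple of 1 step per library for 100% of values (tolerance 0.01), which gave the reads.

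Genes with at least 1 FPKM in at least 2 libraries (14100) were tested as log2(FPKM + 1) with limma 3.58.1 in R 4.3.3, with an intensity trend, no replicate block and Benjamini-Hochberg adjustment, called under 0.05. Log2 differences on this scale understate those of low genes; folds are ratios of mean FPKM. Counts of reads give counting error only.

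The members and lists were chosen with earlier results of these data known. Named were CALU, the members, other chains, genes of each list past the threshold or else its 2 most abundant, the highest gene of each marker list, and the 3 profiles nearest LAMB3. Some genes of these lists are not reported here. Genes outside this rule are marked, or serve the cell type check.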

Additional observations from a re-analysis of the deposited data

How the results depend on the processing

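The calls of the laminin members were tried under 11 alternatives: pseudocounts of 0.1 and 0.5 FPKM, no filter on low values, a mean of at least 1 FPKM, quantile normalization, rescaling to equal sums, a replicate block, and leaving out each library. With no filter 183 genes were higher and 193 lower, against 1711 and 1572 in the fit as reported, and more genes were tested. Leaving out 1 library gave 505 to 1321 genes higher and 537 to 1260 lower, with a group of 1 library assumed to vary like the other group. Leaving out WT replicate 1 gave 505 and 537, and leaving out WT replicate 2 gave 677 and 614. The count of members past the threshold other than LAMB3, 1 as reported, was 0 with no filter, quantile normalization or rescaling, and 0 in all 4 fits without a library. LAMB3 stayed between -2.97 and -2.79 on the log2 scale. Of the tested genes named, NID1 changed direction without WT replicate 2 or KO replicate 1, and AGRN and LAMC1-AS1 without KO replicate 2. Leaving out 1 library gave log2 values of -0.12 to 0.20 for NID1, -0.076 to 0.26 for AGRN and -0.32 to 0.070 for LAMC1-AS1. None of these 3 passed the test as reported, and the others kept their direction under all 11 alternatives. COL4A3 and COL4A4 were not followed through the alternatives.

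Both groups carry the replicate numbers 1 and 2, and the labels do not say that a number marks a shared culture or day. Deviations of same-numbered libraries from their group means correlated at 0.411 across genes. With a replicate block 2968 genes were higher and 2577 lower, and 1 of the 6 members passed (LAMB1, limma adjusted p = 0.0134). ITGA6 and ADRM1 then passed as lower (limma adjusted p = 0.0035 and 0.00932). CD151, VIM and KRT7 passed as higher (limma adjusted p = 0.0344, 0.0112 and 0.0482). ITGA6 also passed with a mean of at least 1 FPKM and with quantile normalization (limma adjusted p = 0.0497 and 0.0466). With 2 libraries per group, small differences such as those of LAMA3, LAMA4, LAMA5, LAMB2 and LAMC1 may not be detectable, and a p above the threshold does not show that levels were equal.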
